A study of Homo sapiens with 6 samples.

Results

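The shared sites described here are stretches of mRNA recovered with the protein AEG-1 in 2 HITS-CLIP libraries and also covered in a PAR-CLIP library of the same cells. They were chosen by position: a site of HITS-CLIP AEG1 replicate 1 wider than 25 nt had to overlap, by at least 1 nt on the same RefSeq mRNA, a site wider than 25 nt of replicate 2 and any site of PAR-CLIP AEG1. Of 6378 replicate 1 sites, 3612 met this rule (56.6%), out of 72385 sites in the 6 libraries of the series. They lie on 863 mRNAs of 863 genes. Because the sites were selected by their presence in the 3 AEG1 libraries, that presence and the scores there are given as a description, with no test.

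AEG-1, the product of MTDH, sits in the membrane of the endoplasmic reticulum (ER). mRNAs of secreted and membrane proteins are translated largely on ribosomes bound to that membrane, while most mRNAs of cytosolic and nuclear proteins are translated on free ribosomes. In CLIP, ultraviolet light bonds RNA to the proteins it touches, the protein is precipitated, and the RNA fragments left after RNase digestion are sequenced.

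All libraries came from AEG-1-14, 1 cell line with stable expression of AEG1 carrying a C-terminal HA tag, made in HepG3, a hepatoblastoma line by the labels. No source used here names the promoter of the tagged gene. HITS-CLIP AEG1 (2 libraries) was irradiated at 254 nm and PAR-CLIP AEG1 (1 library) at 365 nm, and both used anti-HA precipitation. HITS-CLIP negative ctrl (2 libraries) and PAR-CLIP negative ctrl (1 library) were the same cells without ultraviolet light. The labels leave out whether both HITS-CLIP AEG1 replicates had a culture each, and the spread between them may therefore be technical only.

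Each library is a list of called sites, each with the authors' log2 score. Without reads per site, the depth is unknown. The AEG1 libraries held 6378, 5651 and 60085 sites (replicate 1, replicate 2, PAR-CLIP) and the negative controls 60, 90 and 121. Of 20 hepatocyte and hepatoblast markers, 19 had a PAR-CLIP site and 13 a shared site, led by AFP (15 sites), GPC3 (13) and AHSG (11). DLK1, a hepatoblast marker, had no site in any library, and the liver transcription factors HNF4A, FOXA1, FOXA2 and CEBPA held no shared site. Of 22 markers of blood, endothelial, connective tissue, muscle and glial cells, 5 had a PAR-CLIP site and 2 a shared site, LYZ with 7 and CD68 with 1.

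The shared sites were short, and the rule required their 2 HITS-CLIP stretches to overlap, which limits how far apart the ends can lie. Their median width was 60 nt (quartiles 45 and 84, range 26 to 1585 nt), and they covered 268432 nt, of which 219373 nt (81.7%) were covered in all 3 AEG1 libraries. The median distance to the replicate 2 site was 9 nt at the start (quartiles 3 and 28) and 10 nt at the end (quartiles 3 and 27). In 519 sites (14.4%) both ends lay within 5 nt of each other, and in 29 sites both were identical. Splitting differed between replicates: 2642 sites (73.1%) paired one to one, and in these the median distance was 7 nt at either end. The 2332 replicate 1 sites wider than 25 nt that did not meet the rule were narrower, with a median of 46 nt (quartiles 37 and 59), and a wider site meets an overlap rule more easily.

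Near the limits of the rule, 15 of 61 replicate 1 sites of 26 nt were shared sites, and 14 of 53 sites of 25 nt had both overlaps but fell outside by width. Only 20 of the shared sites had 5 nt or less in common with replicate 2, and 4 with PAR-CLIP. Of the replicate 1 sites outside the rule, 1955 overlapped PAR-CLIP alone, 145 replicate 2 alone and 232 neither. For 79 of the 1955, a replicate 2 site lay within 5 nt without overlap. In 5 shared sites the stretches in common with replicate 2 and with PAR-CLIP did not meet, so no base was covered by all 3 libraries.

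Shared sites were spread thinly over many mRNAs and densely over a few. Of the 863 genes, 332 held 1 shared site, 298 held 2 to 4, 141 held 5 to 9 and 92 held 10 or more. Those 92 genes held 1547 sites (42.8%), and the 10 leading genes 389 (10.8%). The median gene had 1.24 shared sites per 1000 nt of mRNA, measured to the last nt that any library covered, and 7.02% of that length lay in shared sites.

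APOB, the structural apolipoprotein of VLDL and LDL particles, led with 83 shared sites on its mRNA (NM_000384). It held 98, 97 and 23 sites in HITS-CLIP replicates 1 and 2 and PAR-CLIP, against no HITS-CLIP control site and 1 PAR-CLIP control site. Its shared sites ran from nt 287 to nt 13810 and took up 44.7% of the length to the furthest site end. FN1, or fibronectin, followed with 53 shared sites, from 55, 58 and 12 sites in the AEG1 libraries and 0, 0 and 3 in the controls. A2M, a plasma protease inhibitor, held 36, from 39, 37 and 5 sites against 0, 1 and 2. On all 3 mRNAs each AEG1 library held more sites than any control, which was not so on every mRNA, as on ALB below.

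**Figure D1:**
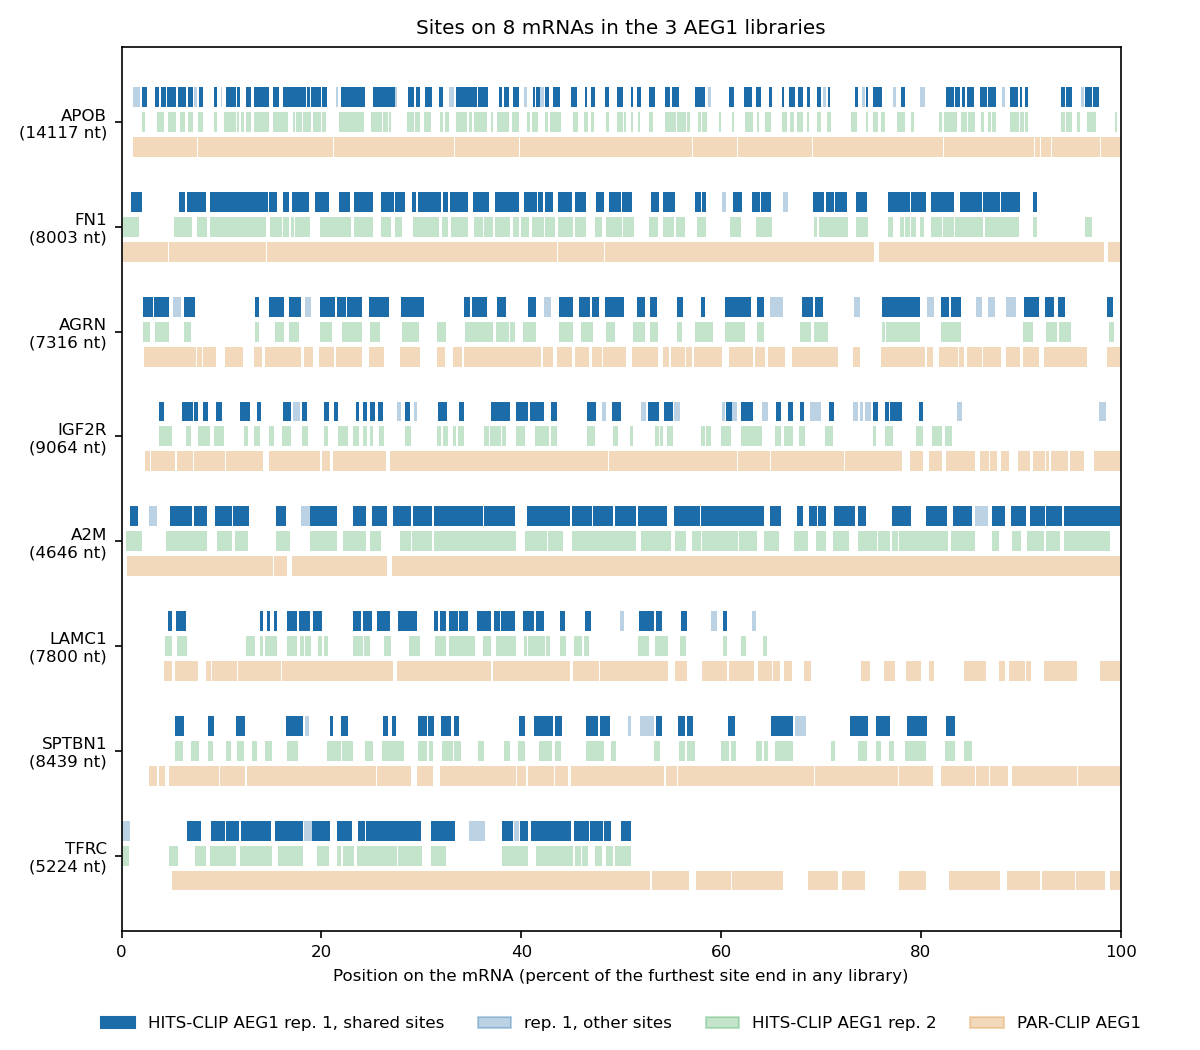
Sites on 8 mRNAs with many shared sites, drawn along each mRNA as percent of the last covered nt (given under the name). Each mRNA has 3 lanes, HITS-CLIP AEG1 replicate 1 (shared sites dark, other sites pale), replicate 2 and PAR-CLIP AEG1; HITS-CLIP sites are short and repeated, while PAR-CLIP sites are long, as on TFRC, whose 21 shared sites lie in 1 PAR-CLIP site.

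The matrix proteins AGRN, or agrin, and LAMC1, a laminin chain, held 40 and 28 shared sites, and THBS1, or thrombospondin, 25. None of these 3 mRNAs had a site in any control. IGF2R, which carries mannose-phosphate-tagged enzymes to lysosomes, held 37, and PLXNB2, a semaphorin receptor, held 26, again without control sites. On LAMC1 they ended at nt 4727, while the furthest site end, from PAR-CLIP, was nt 7800. On IGF2R they ended at nt 7272 of 9064. On A2M they ran from nt 40 to nt 4642 of 4646.

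NOMO1, NOMO2 and NOMO3, near-identical genes of an ER membrane protein, held 31, 27 and 28 shared sites. Between 7 and 9 pairs of neighbouring sites had the same widths and spacing in each pair of these genes, so fragments may have been assigned to more than 1 copy and their counts are uncertain. C4A and C4B had 3 such pairs in common, TUBA1B and TUBA1C 1, and the unrelated A2M and SERPINF1 also 1. SPTBN1, a spectrin of the membrane skeleton and a cytosolic protein, held 26 shared sites from 30, 42 and 29 sites in the AEG1 libraries and 0, 0 and 1 in the controls.

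By density, small secreted proteins joined the large ones. Among genes with at least 3 shared sites, the densest included APOA2, an HDL apolipoprotein, with 8.49 per 1000 nt, RARRES2, or chemerin, with 8.43, A2M with 7.75, and RBP4, the retinol carrier, with 7.57. AFP, or alpha-fetoprotein, had 7.47, HSP90B1, the ER member of the HSP90 family, 7.39 and NOMO1 7.38. On APOA2, 4 shared sites took up 94.1% of the 471 nt. Replicate 2 covered the first 3 of them with 1 site, from nt 1 to nt 369, and PAR-CLIP covered all 4 with 1 site, from nt 1 to nt 466. On RBP4, 7 shared sites from nt 47 to nt 906 lay in 1 PAR-CLIP site from nt 44 to nt 921.

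The gene lists were set against all 8002 genes with a PAR-CLIP site, of which 863 (10.8%) held a shared site, since a gene without PAR-CLIP sites cannot hold one. Of the genes with a replicate 1 site wider than 25 nt, 55.7% held a shared site. Of 315 genes with a PAR-CLIP site in 9 lists of secreted, membrane and organelle proteins, 221 (70.2%) held a shared site. In 7 lists of cytosolic and nuclear proteins, it was 73 of 280 (26.1%). List genes with shared sites held a median of 5 in the first pool and 2 in the second, against 2 over all 863. Of the wide replicate 1 sites on these genes, 73.4% and 50% were shared sites, against 60.8% over all. By share of the genes with a PAR-CLIP site, both pools stand above the value for all genes. Of genes with a replicate 1 site wider than 25 nt, 221 of 263 in the first pool held a shared site. In the second it was 73 of 132, close to the 863 of 1549 over all. By the share of wide sites, the second pool stood below the value over all. The cytosolic and nuclear count depended on the rule: it was 7 with HITS-CLIP sites at or above the median score of their library, 99 without replicate 1 and 128 without replicate 2, where the first pool had 151, 244 and 254. The score cut ranks sites across genes, while the scores of an mRNA were taken to have a constant in common. The 7 and the 151 therefore do not compare the strength of sites between the pools. mRNA abundance was not measured in these files, and its part in these counts was not tested.

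**Figure D2:**
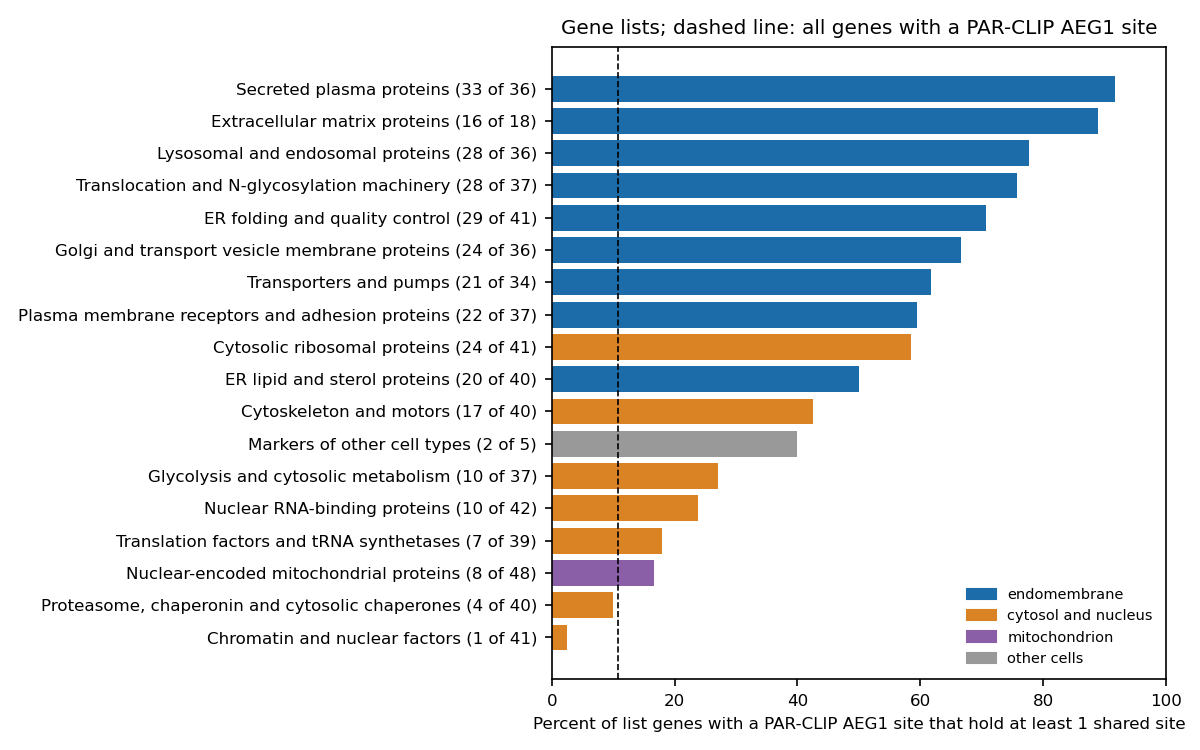
Percent of the genes with a PAR-CLIP AEG1 site that hold at least 1 shared site, for 18 gene lists (bars, counts in brackets, coloured by compartment). The dashed line is the 10.8% over all genes with a PAR-CLIP site; secreted plasma proteins stand at 91.7% and chromatin and nuclear factors at 2.44%.

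Secreted plasma proteins held shared sites on 33 of 36 genes with PAR-CLIP sites (91.7%), with C3, the central complement component, at 23 behind APOB and A2M. The exceptions were coagulation factor F5, with 2, 1 and 43 sites in the AEG1 libraries, complement C5 with 2, 0 and 5, and APOC3 with 0, 2 and 1. Matrix proteins followed with 16 of 18 (88.9%), led by FN1, AGRN and LAMC1, while 12 further members had no PAR-CLIP site. LAMA5 held 20, 19 and 39 sites in the AEG1 libraries but 2 shared sites, and HSPG2, or perlecan, 26, 17 and 42 sites and 10 shared.

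Plasma membrane receptors and adhesion proteins held them on 22 of 37 (59.5%), with PLXNB2 at 26, the transferrin receptor TFRC at 21 and the Wnt co-receptor LRP5 at 18. The list spread widely: EGFR held 11, INSR held 4 despite 50 PAR-CLIP sites, and FAT1, a giant cadherin, held 3 despite 66. Transporters and pumps held them on 21 of 34 (61.8%). ATP2A2, the calcium pump of the ER, held 25 and the sodium-potassium-chloride carrier SLC12A2 22. Of the 6 ABCC transporters of the list, ABCC4 alone held 1, although ABCC2 and ABCC3 had 33 PAR-CLIP sites each.

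Lysosomal and endosomal proteins held them on 28 of 36 (77.8%). After IGF2R came PSAP, the precursor of the saposins, with 16 and the protease CTSD with 15, and LAMP1 of the lysosomal membrane held 14. Folding and quality control proteins of the ER held them on 29 of 41 (70.7%), with glucosidase II alpha, GANAB, at 22, HSP90B1 at 21 and the disulfide isomerase P4HB at 17. The sensors of the unfolded protein response, ERN1, EIF2AK3 and ATF6, held none. They had 6, 11 and 15 PAR-CLIP sites and together 1 HITS-CLIP site.

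Translocation and N-glycosylation machinery held them on 28 of 37 (75.7%). After the NOMO genes came STT3A, a catalytic subunit of oligosaccharyltransferase, with 19, RPN2 of the same complex with 15, and SEC61A1, the pore of the translocon, with 13. Small subunits of the list went both ways: SSR2 held 4, SSR3, SSR4 and SPCS2 3 each and SEC11A 2, while SEC61B, SPCS1, SPCS3 and DAD1 held none. SSR1, of the translocon-associated complex, held 5 on nt 281 to 1050. In order along its mRNA, these scored 5.999, 5.91, 4.91, 3.81 and 1.99 in replicate 1 and 5.81, 5.70, 5.00, 3.58 and 3.58 in replicate 2. The first 4 were close between the replicates, and the last was lower in replicate 1, by -1.59.

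Golgi and transport vesicle membrane proteins held them on 24 of 36 (66.7%), led by the mannosidase MAN1A1 with 16 and by TM9SF2 and TM9SF4, proteins with many membrane spans, with 13 and 12. MAN2A1, another Golgi mannosidase, held 9 sites in replicate 1, 0 in replicate 2 and 26 in PAR-CLIP, and so no shared site. It was 1 of 6 genes with at least 5 wide replicate 1 sites and no shared site; the others, chosen after their values were seen, were DSG2, KIF1C, PLOD1, PRKDC and SLC75A1. ER lipid and sterol proteins held them on 20 of 40 (50%). The desaturase SCD held 14 and POR, the electron donor of microsomal P450 enzymes, 11. Among the regulators of sterol synthesis, SREBF1 held 5, SREBF2 2, and SCAP and INSIG2 none.

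Cytosolic ribosomal proteins had the highest share of the cytosolic and nuclear lists, with shared sites on 24 of 41 genes (58.5%), but few on each. RPL13A and RPL8 held 3 each, and the median was 1. By symbol, 41 of 83 RPL and RPS genes with PAR-CLIP sites (49.4%) held a shared site. Mitochondrial ribosomal proteins, by contrast, held no shared site on any of 73 MRPL and MRPS genes with PAR-CLIP sites.

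Cytoskeleton and motor proteins held them on 17 of 40 (42.5%), led by SPTBN1, beta-actin (ACTB) with 11 and SPTAN1 with 9. DYNC1H1, the dynein heavy chain, held 12, 11 and 88 sites in the AEG1 libraries and 1 shared site. Glycolysis and cytosolic metabolism had 10 of 37 (27%), with the fatty acid synthase FASN at 9, PKM at 6 and ALDOA at 3. Nuclear RNA-binding proteins had 10 of 42 (23.8%), with nucleolin (NCL) at 3 and NPM1 and HNRNPA2B1 at 2 each. Translation factors and tRNA synthetases had 7 of 39 (17.9%). The elongation factors EEF2 and EEF1A1 held 12 and 10, the helicase EIF4A1 3, and none of the 18 synthetases any.

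Proteasome, chaperonin and cytosolic chaperone genes had 4 of 40 (10%), near the value over all genes. These were 3 chaperones, HSPA8 with 10, HSP90AB1 with 5 and HSP90AA1 with 4, and the segregase VCP with 1. Nuclear-encoded mitochondrial proteins had 8 of 48 (16.7%), where HSPD1, the mitochondrial chaperonin, held 5, TUFM 4 and COX4I1 1. The COX4I1 site had 6 nt in common with both other libraries. Chromatin and nuclear factors had 1 of 41 (2.44%): TRIM28, a transcriptional corepressor, held 2, both in 1 PAR-CLIP site at nt 1938 to 2966.

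Families named by symbol ranged as widely. Each of 4 TM9SF genes with PAR-CLIP sites held a shared site, as did 7 of 11 TMED cargo receptors and 41 of 174 solute carriers (23.6%). TMEM genes, named for a membrane span alone, stood lower, with 17 of 113 (15%). None of 43 RAB GTPases, 35 proteasome genes (PSM) and 31 cyclins and cyclin-dependent kinases held one, and 2 of 120 ZNF zinc finger genes did.

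Scores at shared sites differed little between the replicates on average, with a wide spread over sites. The scores of an mRNA were taken to have a constant in common, though no source used here defines the score. They were therefore set side by side at 1 site and not between genes. Any such mRNA constants enter a correlation across sites. The difference, replicate 1 minus replicate 2, was -0.14 ± 1.21 on average (SD over 3612 sites), with quartiles of -0.82 and 0.58. In 2266 sites (62.7%) it was smaller than 1, and in 388 (10.7%) larger than 2. Where several shared sites met 1 wide replicate 2 site, each was set against the score of that whole site. In the one-to-one pairs the mean difference was 0.03 ± 1.11 (SD). Pearson's r across all shared sites was 0.909. After the mean of each mRNA was taken off, over 2992 sites on mRNAs with at least 3, it fell to 0.532. Within an mRNA, the replicate 1 score also rose with width (r = 0.585).

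**Figure D3:**
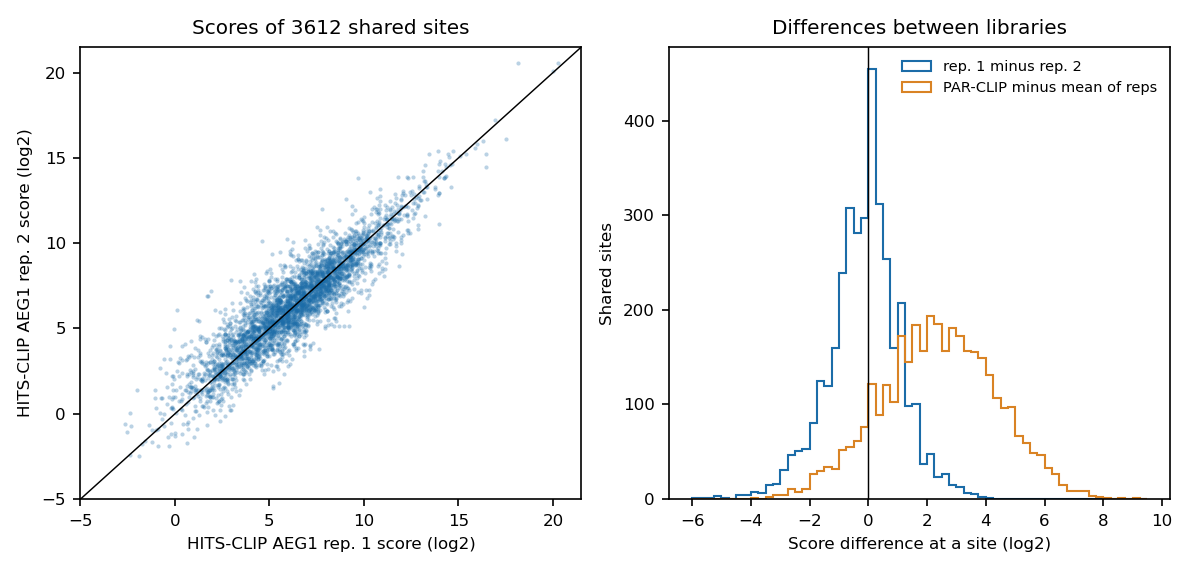
Left, log2 score of each of the 3612 shared sites in HITS-CLIP AEG1 replicate 1 against its highest-scoring overlapping site in replicate 2, with the line of equality. Right, histograms of the score difference per site (log2), replicate 1 minus replicate 2, with a mean of -0.14, and PAR-CLIP minus the mean of the replicates, with a median of 2.41.

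Averaged by gene, with each site set against its highest-scoring replicate 2 partner, the difference was more often negative. Of all 3612 shared sites, 601 had a replicate 2 partner in common with another site. In the one-to-one pairs, over all genes, the mean difference was 0.03 and the median 0. Gene means of one-to-one pairs alone were not computed. Of 233 genes with at least 5 shared sites, 151 were higher in replicate 2 and 82 in replicate 1, and 10 differed by more than 1. The genes highest in replicate 1 were FGFR4, a fibroblast growth factor receptor (1.70 ± 2.02, SD over 6 sites), the lysosomal peptidase TPP1 (1.27 ± 1.29, 6 sites), COCH, or cochlin (1.19 ± 1.05, 5 sites), and the collagen COL18A1 (0.85 ± 0.66, 6 sites). On FGFR4 the site at nt 1725 to 1842 scored 8.94 in replicate 1 and met a replicate 2 site of nt 1808 to 1836 that scored 5.16. The site at nt 233 to 308 scored 7.24 in both. FGFR4 thus held sites of both kinds on 1 mRNA.

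The genes highest in replicate 2 were APOE (-1.41 ± 2.32, SD over 8 sites), the ER chaperone CALR (-1.37 ± 1.70, 12 sites), KDELR1, which returns ER proteins from the Golgi (-1.37 ± 0.77, 6 sites), and C4BPA, a complement regulator (-1.27 ± 1.18, 14 sites). On KDELR1 the 6 shared sites met 3 replicate 2 sites, the widest at nt 523 to 725. The part of such splitting in these differences was not tested.

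PAR-CLIP covered shared sites with much longer sites. The PAR-CLIP partner of a shared site had a median width of 391 nt (quartiles 172 and 775), and 3257 shared sites (90.2%) lay wholly inside PAR-CLIP cover. Such cover was not particular to them: 5567 of all 5944 replicate 1 sites wider than 25 nt overlapped a PAR-CLIP site. How many of the other sites lay wholly inside was not computed. The 3612 shared sites fell on 2063 PAR-CLIP sites, 19.5% of the 10564 on the same mRNAs and 3.43% of all. Of these, 1421 held 1 shared site and 139 held 5 or more. On TFRC all 21 lay in 1 of the 13 PAR-CLIP sites.

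The PAR-CLIP score was higher than both HITS-CLIP scores in 3000 shared sites (83.1%) and lower than both in 277 (7.67%). Its median excess over the mean of the replicates was 2.41 (quartiles 1.06 and 3.76). How the scores of PAR-CLIP and HITS-CLIP were scaled to each other is not known, and PAR-CLIP sites were wider, so this excess does not set the methods on 1 scale of amount. Among 834 mRNAs with at least 2 PAR-CLIP sites, the highest-scoring one overlapped a shared site in 565 (67.7%), while 19.3% of their PAR-CLIP sites did. The rule had selected each of these mRNAs for at least 1 such overlap, and a wider PAR-CLIP site meets a shared site more easily. Width was not taken into account, so these shares do not measure how well the methods match. Within mRNAs, Pearson's r between the mean HITS-CLIP score and the PAR-CLIP score was 0.216 over the same 2992 sites, many of which share a PAR-CLIP site. On APOE the mean of PAR-CLIP minus HITS-CLIP was negative, at -1.52 over 8 sites, and on COL18A1 it was -0.94.

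Shared sites, like the other wide replicate 1 sites, lay more in the first part of the mRNAs than in the last. The median centre of shared sites was at 0.395 of the distance to the last covered nt (quartiles 0.237 and 0.595). The first 25% of that distance held 27.3% of shared and 28.9% of other sites, and the next 25% held 36.2% and 30.9%. In the last 25%, 430 shared sites (11.9%) were centred. For the other wide replicate 1 sites the median was 0.415, with 372 (16%) in the last 25%. At the other end, 74 shared sites (2.05%) started in the first 100 nt, against 114 other sites (4.89%). The first shared site of an mRNA started at a median of nt 546 (quartiles 282 and 910). On mRNAs with at least 3, neighbouring shared sites had centres a median of 143.5 nt apart and a gap of 56 nt between them. The last covered nt need not be the end of the mRNA. Coding and untranslated parts were not analysed here.

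**Figure D4:**
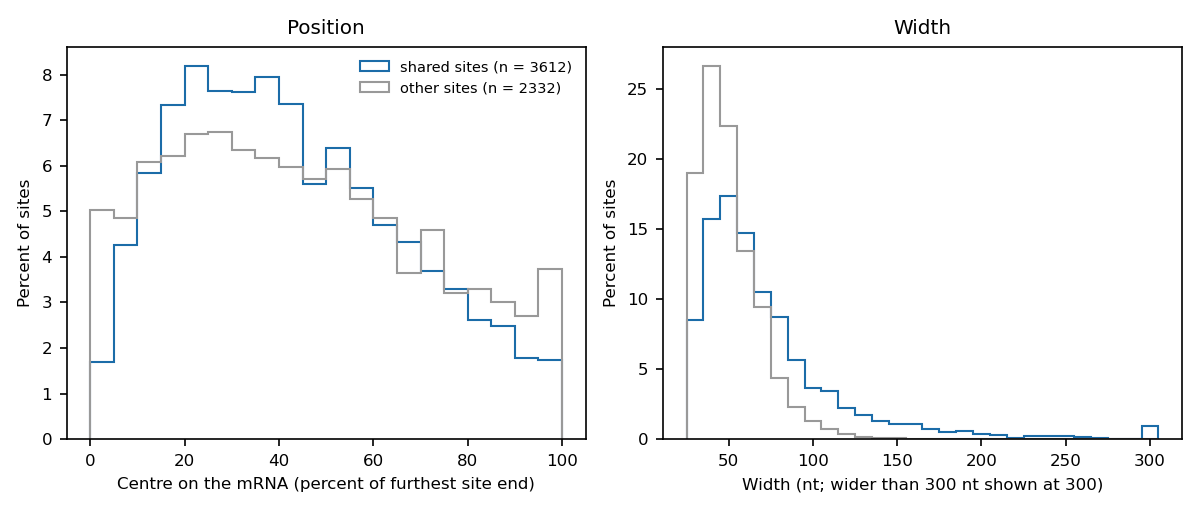
Left, position of the site centre as percent of the furthest site end on its mRNA, in steps of 5%; right, site width in nt, in steps of 10 nt, for the 3612 shared sites and the 2332 other HITS-CLIP AEG1 replicate 1 sites wider than 25 nt. Shared sites are wider (median 60 against 46 nt) and fewer of them lie at either end of the mRNA.

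The position of shared sites differed between gene lists. The median was 0.504 in secreted plasma proteins and 0.545 in cytosolic ribosomal proteins, and 0.280 in Golgi and vesicle membrane proteins, 0.324 in ER lipid and sterol proteins and 0.326 in transporters and pumps. No test of this order was made, and the sites of a list share mRNAs.

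The negative controls, which the rule did not use, overlapped few shared sites. Their 60, 90 and 121 sites (HITS-CLIP controls 1 and 2, PAR-CLIP control) limit how many they could meet. HITS-CLIP controls 1 and 2 met 11 and 15 of 3612 (0.305% and 0.415%), where 0.252% and 0.353% of all wide replicate 1 sites were met. The PAR-CLIP control met 83 (2.30%), against 1.51% of all wide sites. Any control met 95 shared sites (2.63%, exact 95% binomial interval 2.13 to 3.21) in 53 genes and 14 other wide sites (0.6%, interval 0.329 to 1.01), or 1.83% of all wide sites. The intervals treat sites as independent, which those on 1 mRNA are not, and cover counting error only. An exact permutation test of 2 against 2 libraries cannot give a p below 0.333, and no test between libraries was made.

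Width moved with this difference, and its part in it was not tested. Among sites over 60 nt, the PAR-CLIP control met 68 of 1789 shared sites (3.801%) and 2 of 540 others (0.37%). Among sites of 26 to 60 nt it met 15 of 1823 (0.823%) and 5 of 1792 (0.279%). In this narrower class, HITS-CLIP controls 1 and 2 met 1 and 3 shared sites, fewer than the 4 and 6 other sites. Seen from the controls, 35%, 30% and 81.8% of their sites overlapped a shared site.

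At the sites met by a control, the AEG1 score was nearly always higher. How control scores were scaled to those of AEG1 libraries is not known. In 91 of the 95 shared sites the replicate 1 score exceeded every control score there. The median difference was 5.58 for HITS-CLIP control 1, 4.48 for control 2 and 3.54 for the PAR-CLIP control. In 4 sites the PAR-CLIP control score exceeded that of replicate 1 or equalled it within 0.001. Genes with several control-met shared sites included C3 with 8, EEF1A1 with 5, FN1 with 4, and the vitamin D binding protein GC, the actin ACTG1 and the ferritin chain FTL with 3 each.

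**Figure D5:**
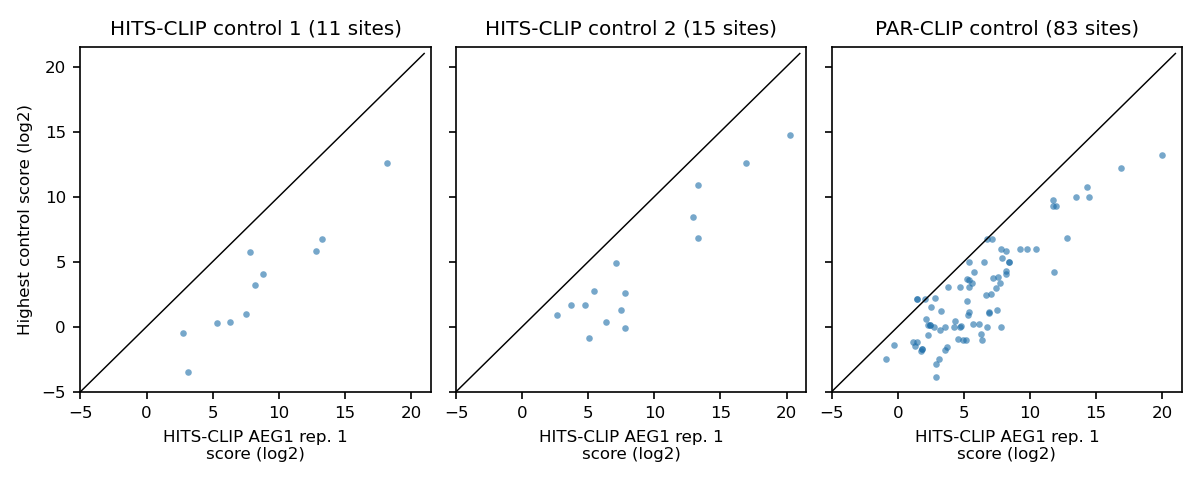
Highest log2 score of an overlapping control site against the HITS-CLIP AEG1 replicate 1 score, for the 11, 15 and 83 shared sites met by HITS-CLIP control 1, HITS-CLIP control 2 and the PAR-CLIP control. The line marks equal scores; all points of the HITS-CLIP controls and all but 4 of the PAR-CLIP control lie under it.

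The widest shared sites, by the stretch covered in all 3 AEG1 libraries, lay on ALB, C3 and GC, plasma proteins whose mRNAs had control sites. By number of sites, ALB held 5, 10 and 3 in the AEG1 libraries and 11, 9 and 13 in the controls. On C3 these were 24, 21 and 4 against 0, 1 and 10, and on GC 3, 2 and 1 against 1, 2 and 3. The PAR-CLIP control thus held more sites than PAR-CLIP AEG1 on all 3. A count of sites does not measure cover, since a long site counts once, and the nt covered on these mRNAs were not compared between libraries. The ALB site ran from nt 344 to nt 1928 and scored 6.31 in replicate 1, 5.34 in replicate 2 and 5.22 in PAR-CLIP. The highest scores of control sites inside it were 0.36 in either HITS-CLIP control and -0.57 for PAR-CLIP without light. It was the 1 shared site met by all 3 controls, and each AEG1 score there was higher than each control score.

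On C3, the site from nt 1155 to nt 2295 scored 7.79, 8.32 and 8.05 in the AEG1 libraries, against a score of -0.12 for HITS-CLIP control 2 and one of -0.04 for the PAR-CLIP control. On GC, 3 shared sites filled nt 176 to 1756 and scored 20.00, 20.28 and 18.16 in replicate 1. The control scores there were 13.16, 14.75 and 12.58, each from another library. C3 and GC had few breaks in cover, with 93.9% and 86.2% of the length in shared sites.

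MTDH, the gene of AEG-1 itself, held 6 shared sites from 10, 8 and 12 sites in the AEG1 libraries and 0, 0 and 1 in the controls. They lay at nt 605 to 1940 of its mRNA. In order, they scored 8.996, 7.80, 9.24, 8.70, 8.46 and 6.58 in replicate 1, and 9.24, 7.80, 10.12, 8.17, 9.52 and 7.996 in replicate 2. Replicate 2 was higher at 4, lower at 1 and equal at 1. The last 5 lay in 1 PAR-CLIP site, from nt 833 to nt 2107, that scored 12.34. The PAR-CLIP control site, at a score of 5.996, met the second and the third. The line expresses tagged AEG1 in addition to any MTDH of its own, and the files do not tell these mRNAs apart.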

How the data were processed

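Sites of 6 libraries were analysed. Per the submitters' processing notes the reads were aligned with Bowtie; no source used here gives its version, the reference, the site caller or its threshold. The deposited files hold, per site, an mRNA accession, a symbol, start and end positions and a score. The authors' log2 score is named so from its values, since no source used here defines it. On 662 of 863 mRNAs with a shared site, the lowest scores of the replicates differed, within 0.09, by log2 of 1, 1.5, 2, 3 or 4. PAR-CLIP scores were not compared this way.

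Starts were taken as 0-based and are printed 1-based. Shared sites were found with Python 3.11.15 and pandas 2.3.3, by overlap of at least 1 nt, and the overlap code was tested on simulated sites. Where several sites overlapped, the highest-scoring one was the partner. Symbols came from the RefSeq gene table (GRCh38.p14): 859 of 863 mRNAs matched by accession and 4 by symbol. Shares carry exact Clopper-Pearson 95% intervals. No test across sites was run.

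The shared sites, gene lists, families and naming rule were chosen with earlier results of these data known. By that rule the text names the 12 genes with most shared sites, the 8 densest with at least 3, the 3 leading genes of each list, the 6 most met by controls, the 4 highest and 4 lowest in mean replicate difference among those with at least 5, those of the 5 sites widest in all 3 libraries, and MTDH. Other list members were named after their values were seen, and some genes that the rule names are not reported here. The planned measure of hydrophobic stretches in proteins was not run, because no protein sequences were used here.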

Additional observations from a re-analysis of the deposited data

How the results depend on the processing

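Of 56 values recomputed under 12 alternatives, 41 stayed within the limits set, which were 1.5 times for counts. For the position the limit was 0.00125, the SD of the medians with replicate 1 and with replicate 2 sites counted. The alternative with replicate 2 sites counted therefore had to lie outside it. For scores the limit was 1.21, the SD of the replicate difference over sites. That is wide for the shift of a median, so the tally is a description only. With HITS-CLIP sites at or above the median score of their library alone, shared sites fell to 1530, their genes to 556, cytosol and nucleus list genes to 7 and sites met by a control to 39. Endomembrane list genes were then 151. Scores were taken to depend on mRNA constants. With 1 HITS-CLIP replicate left out, shared sites were 4934 (without replicate 1) to 5567 (without replicate 2), their genes 1204 to 1332, cytosol and nucleus list genes 99 to 128, and the median position 0.402 (without replicate 2) to 0.405. The median position was also 0.397 with an overlap of 50% of the site, 0.398 with no width minimum, 0.4005 with widths over 40 nt, 0.397 with replicate 2 sites counted, 0.388 above the median score and 0.397 without sites met by a control. Counting sites that only touch as overlapping, added after seeing the data, gave 3625. No paired analysis was possible because the results come from no test. The alternatives that need mRNA lengths or proteins were not run.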

Other observations

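Of the 4 replicate 1 sites outside the rule that met HITS-CLIP control 1, chosen here after their values were seen, 1 scored as high in the control as in HITS-CLIP AEG1 replicate 1. The median difference at these 4 sites was 1.13, against 5.58 at the 11 shared sites met by the same control. For HITS-CLIP control 2 the medians were 1.92 at 6 other sites and 4.48 at 15 shared sites. All of these other sites were 26 to 60 nt wide, while most of the shared sites were wider. Among shared sites of 26 to 60 nt, the difference was 2.08 at 1 site for control 1. For control 2 the median was 2.17 at 3 such sites. The part of width in these differences was not tested.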
